A study of Mus musculus with 4 samples.

Results

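Motile cilia are the beating cilia that move cerebrospinal fluid over the walls of the brain ventricles, where they stand in tufts on ependymal cells. Their core, the axoneme, is a ring of microtubule doublets around a central pair, and it beats because dynein motors on one doublet walk along the next. The radial spokes and the central pair set the rhythm, while the nexin-dynein regulatory complex and the molecular rulers hold the parts in their repeating places. The transcription factors FOXJ1, RFX2 and RFX3 switch on the genes of these parts, after GMNC and MCIDAS have started a cell on the path to many cilia. The genes described here were 41 motile cilia and ependymal genes of the 55421 genes in the count files, found by Ensembl identifier through the GENCODE M21 names. They were selected with the counts of the same libraries with and without FGF2 known, so all their differences between the groups are given as a description with no test. A gene with at most 10 counts in every library was to be called not measured. All 41 were measured, the lowest of their highest counts being 38 for Tekt2, and all 41 passed the expression filter of edgeR.

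The samples came from prefrontal cortex (PFC) of C57BL/6 WT mice at postnatal day 0, freed of meninges and visible blood vessels, dissociated with papain and kept for 10 days in neurobasal medium with B27. In the FGF2 group 5 ng/mL of FGF2, fibroblast growth factor 2, was added, and the noFGF2 group was the same culture without it. Each group had 2 libraries of total RNA, replicates 1 and 2, and the number of animals behind a culture is not given in the sources used here. The methods of the paper speak of technical replicates for most of its samples, so the libraries of a group may not be separate cultures, and p-values then cover technical spread only. The depth was 9166432 and 9907613 counts on genes in replicates 1 and 2 of the FGF2 group, against 10460236 and 10799886 in the noFGF2 group. At these depths a gene with no count could be present at up to 0.276 to 0.33 CPM (counts scaled to a common depth), the limit that 3 counts allow for counting error only. All values below are CPM after TMM scaling unless named otherwise, with SD over the libraries, and log2 fold changes are FGF2 over noFGF2 with their standard error (SE).

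A large share of all genes differed between the groups. With edgeR's quasi-likelihood test and a Benjamini-Hochberg adjusted p below 0.05, 6948 of 17144 genes tested were called, which is 40.5%. Higher with FGF2 were 20.7% of the genes tested and lower were 19.9%. Both FGF2 libraries lay above both noFGF2 libraries for 33.6% of the genes and below them for 33.4%. The median log2 fold change of all genes tested was 0.

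Across the 41 cilia genes the lower values with FGF2 were the more frequent. The same threshold marked 5 genes as higher with FGF2, namely Rfx2, Dnah9, Dnah7b, Cfap54 and Ccdc39, and 20 as lower, while 16 did not pass it. Since the genes were selected on this contrast, nothing is read from these counts beside the 20.7% and 19.9% of all genes. Both FGF2 libraries were below both noFGF2 libraries for 24 genes and above them for 11, beside 33.4% and 33.6% of all genes. The groups overlapped for 6. The median log2 fold change was -0.33, with a range from -2.41 for Tmem212 to 0.71 for Dnah7b. The summed level of the 41 genes was 1860 and 1860 CPM with FGF2 and 1980 and 2030 CPM without, and of the genes above 100 CPM without FGF2, Dnah6 and Hydin were lower, Dnah9 and Cfap54 were higher, and Rfx3, Foxj1 and Cfap44 did not pass the threshold. In a bulk library, fewer ciliated cells and less cilia RNA per ciliated cell cannot be told apart.

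**Figure D1:**
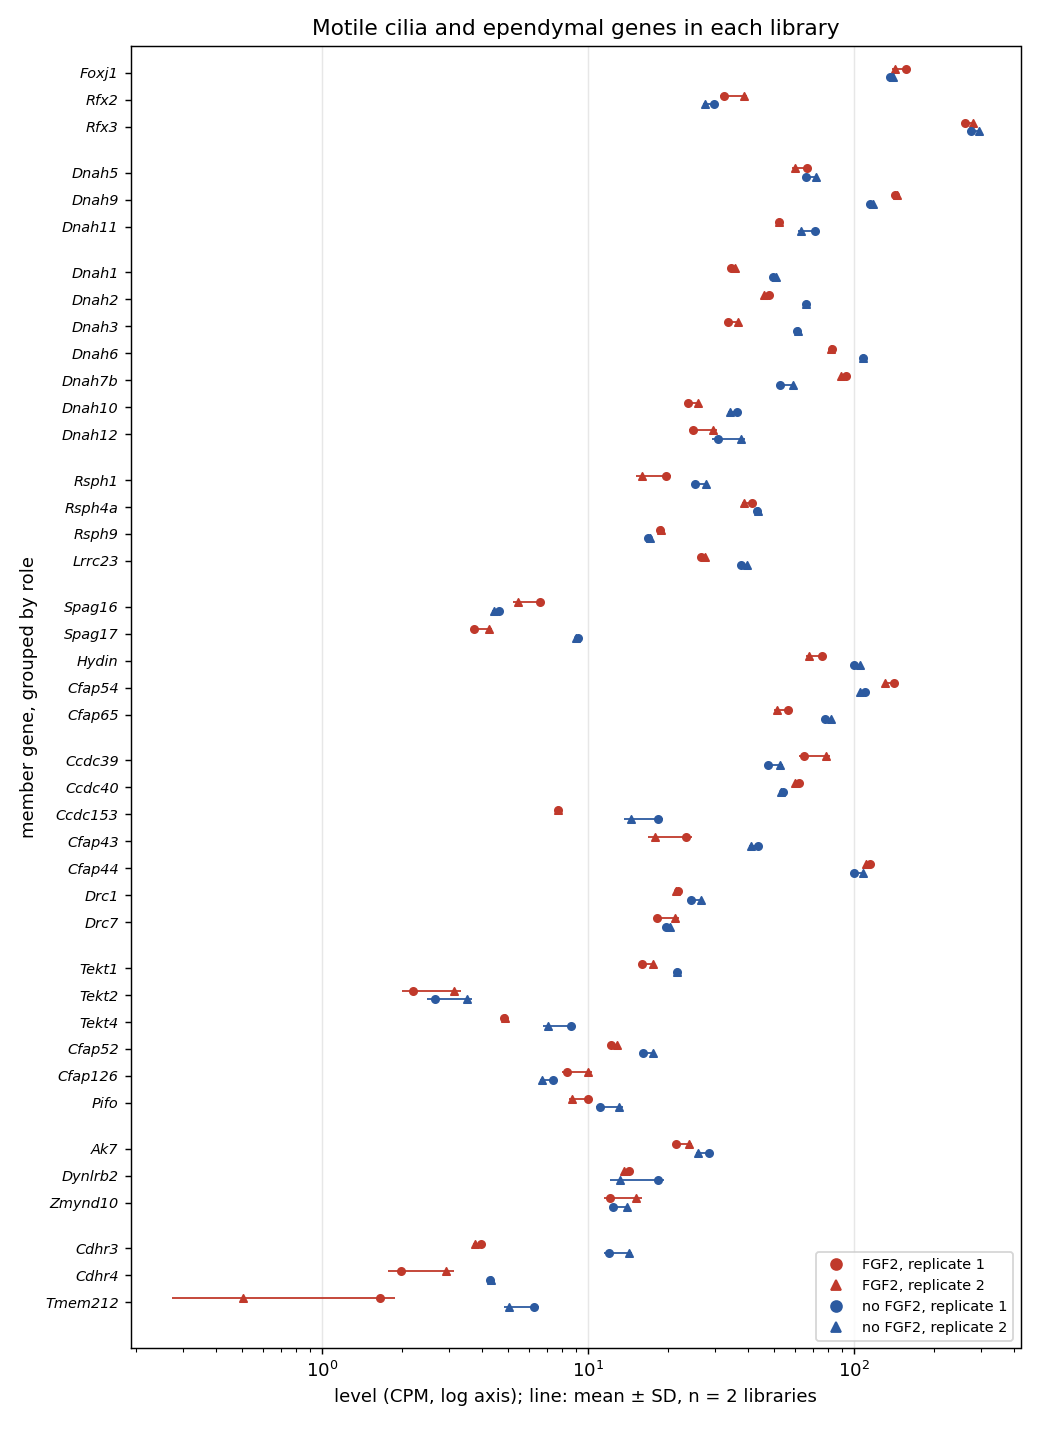
Level of each of the 41 genes in every library, in CPM on a log axis, with genes grouped by role from the transcription factors at the top to the cadherins and the membrane protein at the bottom; points are libraries (red FGF2, blue noFGF2) and lines are mean ± SD of 2 libraries. The groups stand apart most for Cdhr3 and Tmem212 and lie close together for Foxj1, Rfx3 and Cfap44.

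Levels between genes were compared per exonic length, as RPKM (CPM per kilobase of exon). Without FGF2 the median gene had 6.71 RPKM, and the order began with Foxj1 at 52.6, the light chain gene Dynlrb2 at 28.3, Rfx3 at 25.8 and the radial spoke genes Lrrc23 at 22.3 and Rsph1 at 19.3. The SD of Dynlrb2 was 6.55 RPKM, wider than its distance to Rfx3, so the order of these neighbours is not resolved. At the end of the order stood Cdhr4 at 1.39 RPKM, Spag17 at 1.07 and Spag16 at 0.671. By role, the median without FGF2 was 15.6 RPKM for the radial spokes, 3.85 for the inner arm dynein heavy chains and 2.86 for the cadherins and the membrane protein.

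The RFX factors bind the X-box, an inverted repeat found before many cilia genes, and forkhead factors such as FOXJ1 bind a short core, so the promoters were searched for both on either strand. RefSeq promoter windows (GRCm38.p6, 250 bases before to 50 after the start) were matched for 35 of the 41 genes. The X-box written as GTTNCC, 0 to 3 bases and GGNAAC was found in 1 gene, Pifo, or 2.86%, against 0.936% of the 27025 genes of the table. A looser form with 1 to 4 bases and a shorter second arm, GTTNCC and GNAAC, contains the first form and was searched afterwards. It was found in 10 of the 35 genes, or 28.6%, against 2.14% of all genes, and these were Rfx2, Dnah9, Spag16, Spag17, Hydin, Tekt2, Tekt4, Cfap44, Pifo and Dynlrb2. It was not particular to them, with 24.7% of the other axonemal genes and 13.4% of the transport and primary cilium genes listed below. The first form was found in 8.99% and 10.4% of those lists. The other loose forms tried, chosen after the first search as well, were found in 31.4% and 22.9% of the 35 genes, against 3.09% and 4.38% of all genes. The forkhead core GTAAACA was found in Ak7 and Cfap43, or 5.71%, against 4.05% of all genes. A match is a description of letters and not a site shown to be bound.

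The X-box windows of 6 genes are shown because they belong to genes on both sides of the contrast, namely Rfx2 and Dnah9 with higher values with FGF2, Hydin and Spag17 with lower values, and Spag16 and Pifo, which did not pass the threshold. Each reads 5′ to 3′ on the strand of the gene in GRCm38.p6, ends before the annotated start and has the X-box letters of the looser form, on either strand, in capitals. The windows lie at chr17:56831098-56831137 (Rfx2, minus strand), chr11:66168608-66168647 (Dnah9, minus strand), chr8:110266943-110266976 (Hydin, plus strand), chr3:99885195-99885234 (Spag17, plus strand), chr1:69826854-69826893 (Spag16, plus strand) and chr3:106001498-106001530 (Pifo, minus strand).
Rfx2: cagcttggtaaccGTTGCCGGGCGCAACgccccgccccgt
Dnah9: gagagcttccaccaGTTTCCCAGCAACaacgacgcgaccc
Hydin: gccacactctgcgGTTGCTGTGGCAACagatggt
Spag17: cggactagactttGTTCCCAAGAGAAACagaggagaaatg
Spag16: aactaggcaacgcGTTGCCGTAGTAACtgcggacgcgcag
Pifo: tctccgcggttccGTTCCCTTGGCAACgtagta
The X-box ended 6 bases before the start in Pifo, 7 in Hydin, 69 in Dnah9, 89 in Spag16, 101 in Rfx2 and 194 in Spag17. The looser form was present in 2 of 4 matched genes with higher values, in 3 of 17 with lower values and in 5 of 14 that did not pass the threshold.

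Foxj1, the forkhead factor that commits cells to motile cilia (chromosome 11, 116330704 to 116335399, mm10), differed little between the groups. Its level was 157 and 142 CPM with FGF2 and 136 and 140 without. The FGF2 libraries were both above the others, but only narrowly, and the log2 fold change of 0.11 (SE 0.06) did not pass the threshold. It passed as higher with offsets for gene length and GC content, at 0.27 without and with the replicate block, and without FGF2 replicate 2, at 0.18. Rfx3, the most abundant of the RFX factors of the list, had 261 and 279 CPM with FGF2 and 276 and 294 without, so the groups overlapped (log2 fold change -0.08, SE 0.04), and it passed as lower under the same 3 alternatives (-0.17 with the offsets and -0.13 without that library). Rfx2, its close relative, had 32.5 and 38.4 CPM with FGF2 and 29.8 and 27.6 without. Its log2 fold change of 0.31 (SE 0.11) was past the threshold, which it missed with DESeq2 and without replicate 2 of either group, where it ranged down to 0.18.

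The outer dynein arms, which give the cilium most of its power, did not move as 1 unit. Dnah5 and Dnah9 encode the heavy chains that pair in the distal outer arm, and Dnah11 encodes the partner of DNAH5 in the proximal arm. Dnah9 had 143 and 145 CPM with FGF2 and 115 and 118 without, a clear separation, with a log2 fold change of 0.31 (SE 0.06). Dnah11 went the other way, with 52.1 and 52.4 CPM against 71 and 63.2 (-0.36, SE 0.08). Dnah5, the chain common to both arm types, overlapped between the groups with 66.4 and 59.7 CPM against 65.9 and 71.9 (-0.13, SE 0.08). All 3 levels add up to 262 and 257 CPM with FGF2 and 251 and 253 without.

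The inner dynein arms shape the bend of the cilium, and their heavy chain genes were mostly lower with FGF2. Of 7 genes, 6 were lower and past the threshold, with log2 fold changes from -0.80 to -0.33, beside 19.9% lower of all genes tested. Since the genes were selected on this contrast, nothing is read from this count. Dnah3 was the lowest of them, with 33.5 and 36.5 CPM against 60.9 and 61.5 (-0.80, SE 0.09). Lyrm1 overlaps 10.5% of the exonic bases of Dnah3 on the opposite strand and was lower too, with 37 and 54 counts against 76 and 108. Dnah1 and Dnah10, which encode chains of separate inner arms, had 35 ± 0.842 CPM against 50.2 ± 1.11 (SD, n = 2; -0.52) and 24.7 ± 1.43 against 35.2 ± 1.48 (SD, n = 2; -0.51). Dnah2 had 46.8 ± 1.25 CPM against 66.1 ± 0.0153 (SD, n = 2; -0.50), Dnah6 82 ± 0.491 against 108 ± 0.315 (SD, n = 2; -0.40), and Dnah12 27.2 ± 3.3 against 34.1 ± 4.89 (SD, n = 2; -0.33). None of these 6 genes overlapped between the groups, beside 33.4% of all genes with both FGF2 libraries below. The call of Dnah12 was lost with DESeq2 and when either FGF2 replicate 1 or noFGF2 replicate 2 was left out.

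Dnah7b, the remaining inner arm gene (chromosome 1, 46066315 to 46373546), had 92.8 and 88.9 CPM with FGF2 and 52.7 and 58.7 without. This was the largest higher value on the list, 1.63-fold (log2 fold change 0.71, SE 0.08), in contrast to the other 6 heavy chains of the inner arms. Its transcript shares a stretch of 12230 bases at 96.9% identity with that of Dnah7a and of 12203 bases at 97.3% with that of Dnah7c. Reads that fit several of these copies were removed by the mapping quality filter, so their counts are uncertain. Dnah7a had 25 and 40 counts in the FGF2 libraries against 38 and 35 (log2 fold change 0, SE 0.33, adjusted p = 1 by edgeR), and Dnah7c had 59 and 73 against 83 and 93 counts (-0.24, SE 0.22, adjusted p = 0.41 by edgeR). Neither copy passed the test, and the difference between Dnah7b and its copies was not tested.

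Radial spokes pass signals from the central pair to the dyneins. The spoke head gene Rsph1 had 19.7 and 15.9 CPM with FGF2 and 25.3 and 27.7 without (log2 fold change -0.58, SE 0.13). Lrrc23, which encodes a spoke protein, had 26.5 and 27.6 CPM against 37.6 and 39.6 (-0.51, SE 0.11). These were the pair past the threshold of the 4 spoke genes, both lower, beside 19.9% lower of all genes tested. The other spoke head genes lay closer to 0, with 40 ± 2.05 against 43.3 ± 0.468 CPM for Rsph4a (SD, n = 2; -0.12, SE 0.10) and 18.7 ± 0.13 against 17 ± 0.234 CPM for Rsph9 (SD, n = 2; 0.14, SE 0.14).

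The central pair genes divided. Hydin, whose loss causes hydrocephalus, had 75.5 and 67.7 CPM with FGF2 and 100 and 105 without (log2 fold change -0.52, SE 0.07). Cfap65 was similar, at 53.9 ± 3.89 against 79.7 ± 3.27 CPM (SD, n = 2; -0.57, SE 0.08). Spag17 encodes a projection protein of the central pair and had few counts, 34 and 42 with FGF2 and 97 and 98 without, a 2.27-fold lower level with FGF2 (-1.18, SE 0.24). On the opposite strand Wdr3, with 246 to 281 counts, overlaps 9.66% of its exonic bases. Spag16, which encodes another central pair protein, had 60 and 54 counts against 49 and 48 and did not pass the threshold (0.41, SE 0.26). Cfap54, also of the central pair, was more abundant and higher with FGF2 in both libraries, at 141 and 131 CPM against 110 and 105 (0.34, SE 0.06). Thus 3 of the 5 central pair genes were past the threshold as lower and 1 as higher, beside 19.9% and 20.7% of all genes tested.

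Ccdc39 and Ccdc40 encode the partners of the molecular ruler that sets the repeat of the axoneme, and their products work as a pair. Ccdc39 had 65 and 78.3 CPM with FGF2 and 47.4 and 52.8 without (log2 fold change 0.52, SE 0.08). Ccdc40 had 62 and 60.2 CPM against 54 and 53.2, also above in both libraries, but did not pass the threshold (0.19, SE 0.08). Ttc14 overlaps 16.9% of the exonic bases of Ccdc39 on the opposite strand and had 611 and 833 counts against 728 and 859, with a log2 fold change of 0.04 (adjusted p = 0.75 by edgeR). The counting kept strands apart as far as the files show, since counts above 0 were found for 8 of 782 genes that another gene on their own strand covers to at least 98%, and for 159 of 471 genes covered to that degree on the opposite strand only.

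Ccdc153, Cfap43 and Cfap44 and the genes Drc1 and Drc7 stand for the regulatory complex and the tether that anchors inner arm dyneins. Ccdc153 had 7.69 and 7.71 CPM with FGF2 and 18.3 and 14.5 without, 2.12-fold lower (log2 fold change -1.09, SE 0.18). Cfap43 and Cfap44 encode the tether partners, and only the first passed the threshold, with 23.4 and 17.9 CPM against 43.4 and 40.9 (-1.03, SE 0.11). Cfap44 had 115 and 111 CPM against 100 and 108, above in both FGF2 libraries, but did not pass the threshold (0.11, SE 0.06). Itprip, with 48 to 69 counts, shares 2.32% of the exonic bases of Cfap43 on the same strand. Drc1 and Drc7, both of the nexin-dynein regulatory complex, had log2 fold changes of -0.24 (SE 0.13) and -0.02 (SE 0.14) and did not pass the threshold.

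Tektins and related proteins line the inside of the doublets. Tekt1 had 15.9 and 17.5 CPM with FGF2 and 21.6 and 21.6 without (log2 fold change -0.37, SE 0.14), and Tekt4 had 44 and 48 counts against 91 and 77 (-0.69, SE 0.24). Cfap52, a protein inside the doublet, had 12.5 ± 0.408 CPM against 16.9 ± 1.03 (SD, n = 2; -0.43, SE 0.16). These were the 3 of 6 genes in this role past the threshold, beside 40.5% of all genes tested, and all 3 calls were lost with DESeq2. Tekt2 had 20 and 31 counts against 28 and 38, overlapped between the groups and did not pass the threshold (-0.20, SE 0.36). Cfap126, a gene of basal body docking, had 8.35 and 10 CPM against 7.4 and 6.72 (0.38, SE 0.21), and Pifo, a gene of the base of the cilium, 10 and 8.72 against 11.1 and 13.1 (-0.37, SE 0.18), and neither passed the threshold.

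The genes of dynein assembly and supply had log2 fold changes from -0.26 to 0.05. For Zmynd10 and Dynlrb2 the sign changed when 1 library was left out. Zmynd10, needed to assemble dynein arms in the cytoplasm, had 12.1 and 15.2 CPM with FGF2 and 12.4 and 14 without. Ak7, an adenylate kinase of the axoneme, had 21.4 and 24 CPM against 28.5 and 25.9 (log2 fold change -0.26, SE 0.12). Dynlrb2 had 14.3 and 13.7 CPM against 18.3 and 13.2, so that the noFGF2 libraries differed from each other by more than the groups did. None of the 3 genes passed the threshold, beside 40.5% called of all genes tested.

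The cadherins Cdhr3 and Cdhr4 and the membrane protein gene Tmem212 were all lower with FGF2 and past the threshold, with few counts each. Of all genes tested 19.9% were lower. Tmem212 (chromosome 3, 27866066 to 27896368) had 15 and 5 counts in the FGF2 libraries against 66 and 55, or 1.08 ± 0.807 against 5.67 ± 0.848 CPM (SD, n = 2). The groups were well apart, at 5.3-fold, but the FGF2 libraries differed from each other and the log2 fold change of -2.41 (SE 0.38) ranged from -3.45 without replicate 1 with FGF2 to -1.77 without replicate 2. Cdhr3, a cadherin known as the receptor of rhinovirus C on ciliated airway cells (chromosome 12, 33033796 to 33092875), had 36 and 37 counts in the FGF2 libraries against 126 and 154, 3.39-fold lower with FGF2 (-1.76, SE 0.22). It held its place past the threshold under every alternative. Cdhr4 had 18 and 29 counts against 45 and 47 (-0.80, SE 0.34), did not overlap, and lost its call under 8 alternatives, among them DESeq2 and each of 3 libraries left out. Its exons share 18.5% of their bases with Gm20661 on the same strand, which had 8 to 15 counts.

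**Figure D2:**
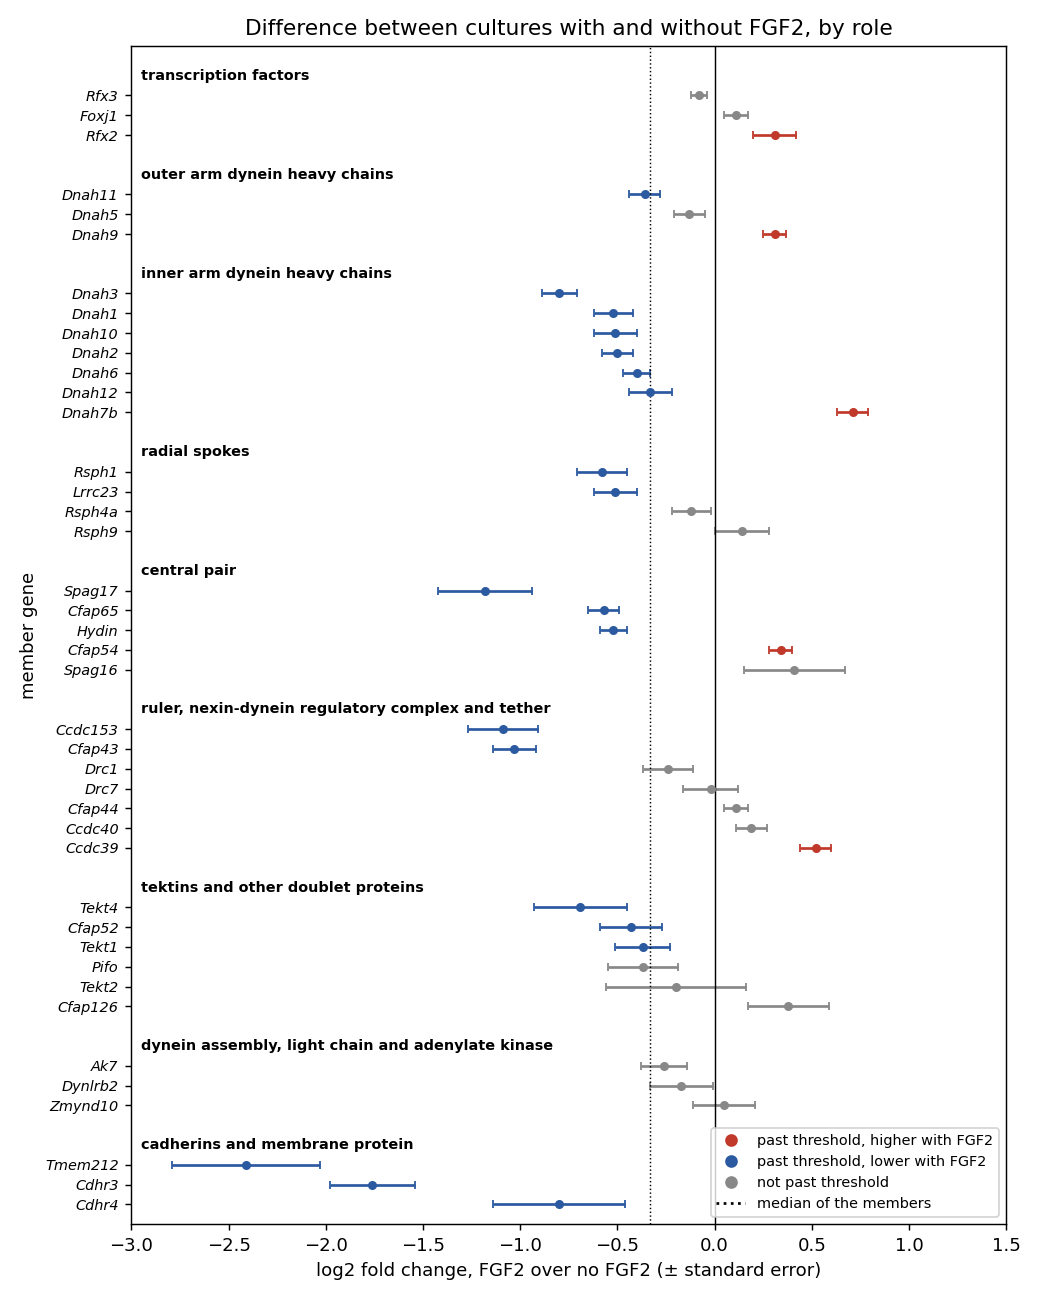
Log2 fold change of each of the 41 genes (FGF2 over noFGF2, points, with the standard error as bars), grouped by role and coloured by whether the edgeR call was higher, lower or neither. The dotted line is the median of the 41 genes at -0.33. Of the inner arm heavy chains 6 of 7 lie left of 0. Ccdc39 and Ccdc40 lie at 0.52 and 0.19, and Cfap43 and Cfap44 at -1.03 and 0.11. The differences between such partners were not tested.

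Genes just inside and just outside the threshold were close in size. Cfap52 (-0.43, SE 0.16) and Tekt1 (-0.37, SE 0.14) lay inside it, while Pifo (-0.37, SE 0.18) and Ak7 (-0.26, SE 0.12) lay outside. Of the 25 genes called, 19 stayed called under every alternative and none changed sign. The 6 others were Rfx2, Dnah12, Tekt1, Tekt4, Cfap52 and Cdhr4, and each of them was lost with DESeq2.

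A list of 26 genes, regulators of ciliogenesis and centriole amplification genes, was chosen with results of these data known. It was not limited to genes that act upstream of the 41, so its counts do not describe upstream regulators alone. Of 26 tested, 7 rose, 2 fell and 17 did not pass the test, with a median log2 fold change of 0.03, beside 20.7% higher and 19.9% lower of all genes tested. Gmnc, the first switch towards a multiciliated cell (chromosome 16, 26913553 to 26991652), had 149 and 165 counts in the FGF2 libraries against 47 and 52, 16.6 ± 0.251 against 4.63 ± 0.232 CPM (SD, n = 2). It rose 3.57-fold (log2 fold change 1.84, SE 0.20, adjusted p = 6.5e-19 by edgeR). Mcidas, which acts next, had 102 and 105 counts against 69 and 68 (0.77, SE 0.21, adjusted p = 0.00087 by edgeR). Its neighbour Cdc20b, needed to release new centrioles, had 231 and 205 counts against 130 and 134 (0.90, SE 0.15, adjusted p = 6.1e-09 by edgeR). Deup1, which builds the deuterosome on which centrioles are made, had 226 and 247 counts against 162 and 199 (0.56, SE 0.13, adjusted p = 0.00011 by edgeR). Ccno and Trp73, which act at the same stage, did not pass the test (0.38, SE 0.22, adjusted p = 0.18 by edgeR, and -0.23, SE 0.18, adjusted p = 0.33). Gmnc, Mcidas, Cdc20b and Deup1 were picked for the largest differences among the genes called, so their separation was set by that choice. The genes that fell, named after their values were seen, were Rfx5 (-0.40, SE 0.10) and Odf2 (-0.17, SE 0.06). Foxj1 and Rfx3 did not pass the threshold, apart from the alternatives named above, and of the 41 genes 20 were lower and 5 higher. The relation of the regulators to the 41 genes was not tested.

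**Figure D3:**
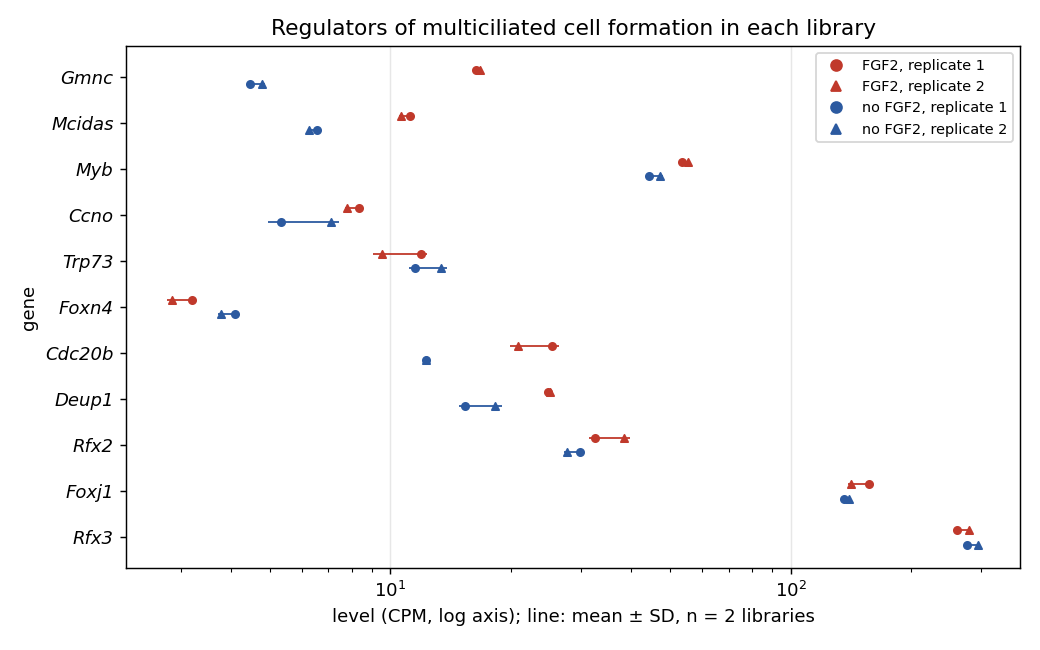
Level of 8 regulators and deuterosome genes and of the transcription factor genes Rfx2, Foxj1 and Rfx3 in every library, in CPM on a log axis; points are libraries (red FGF2, blue noFGF2) and lines are mean ± SD of 2 libraries. Gmnc stands apart most, at 16.6 against 4.63 CPM, and Foxj1 least among the genes whose groups do not overlap.

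A further list of 117 genes outside the 41, called the other axonemal genes here, also held genes with wider roles, such as the cytoplasmic Dynlrb1. Its counts therefore do not describe axonemal genes alone. It was chosen with results of these data known, and 108 of its genes were matched and 100 tested. Of these 5 rose, 28 fell and 67 did not pass the test, with a median log2 fold change of -0.18 beside 0 for all genes tested, of which 20.7% were higher and 19.9% lower. With DESeq2 the count that fell was 10 and the count that rose was 2. DESeq2 called fewer genes in all, 4456 of 17144, of which 51.9% were higher. The count that rose was 10 with the offsets, and both counts also varied when 1 library was left out. The count that fell thus depended on the method and the libraries, and nothing is read from it beside the share of all genes. The largest differences were in the dynein heavy chain gene Dnah8 (log2 fold change -1.40, SE 0.52, adjusted p = 0.019 by edgeR), the outer arm docking gene Armc4 (-1.23, SE 0.33, adjusted p = 9e-04), 1110017D15Rik (-1.20, SE 0.18, adjusted p = 4.1e-10) and Fam183b (-1.12, SE 0.31, adjusted p = 0.0011). Dnah8 had 8 and 8 counts against 26 and 22, and its call was lost with DESeq2 and when any of 3 libraries was left out, both FGF2 libraries and noFGF2 replicate 1 (adjusted p = 0.055 to 0.13 by edgeR). Replicate 2 without FGF2 decided part of the others, since Armc4 had 23 and 17 counts against 36 and 71 and without that library reached -0.69 (adjusted p = 0.28 by edgeR), and Fam183b reached -0.55 (adjusted p = 0.37 by edgeR). The 5 that rose, named after their values were seen, were Spag1, Cfap69, Iqub, Spef2 and Lrriq1, at 0.27 to 0.61 on the log2 scale. Dynlrb1, the cytoplasmic paralog of Dynlrb2, fell by 0.24 on the log2 scale (SE 0.06, adjusted p = 0.00075 by edgeR), a call lost with DESeq2 and without replicate 2 of either group (adjusted p = 0.19 and 0.16 by edgeR).

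Genes of ciliary transport and of the primary cilium, which lacks motor arms, were given for comparison. Of 75 genes of intraflagellar transport, the BBSome and the primary cilium, 19 rose, 6 fell and 50 did not pass the test, with a median log2 fold change of 0.04, beside 20.7% higher and 19.9% lower of all genes tested. Cep290, a gene of the gate at the base of the cilium, had 0.83 (SE 0.16, adjusted p = 1.9e-06 by edgeR), the transport gene Ift74 had 0.57 (SE 0.13, adjusted p = 2.9e-05) and the gate genes Cc2d2a and Nphp4 had 0.54 (SE 0.07, adjusted p = 8.8e-13) and -0.56 (SE 0.13, adjusted p = 0.00017). The difference between these lists and the 41 genes was not tested.

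**Figure D4:**
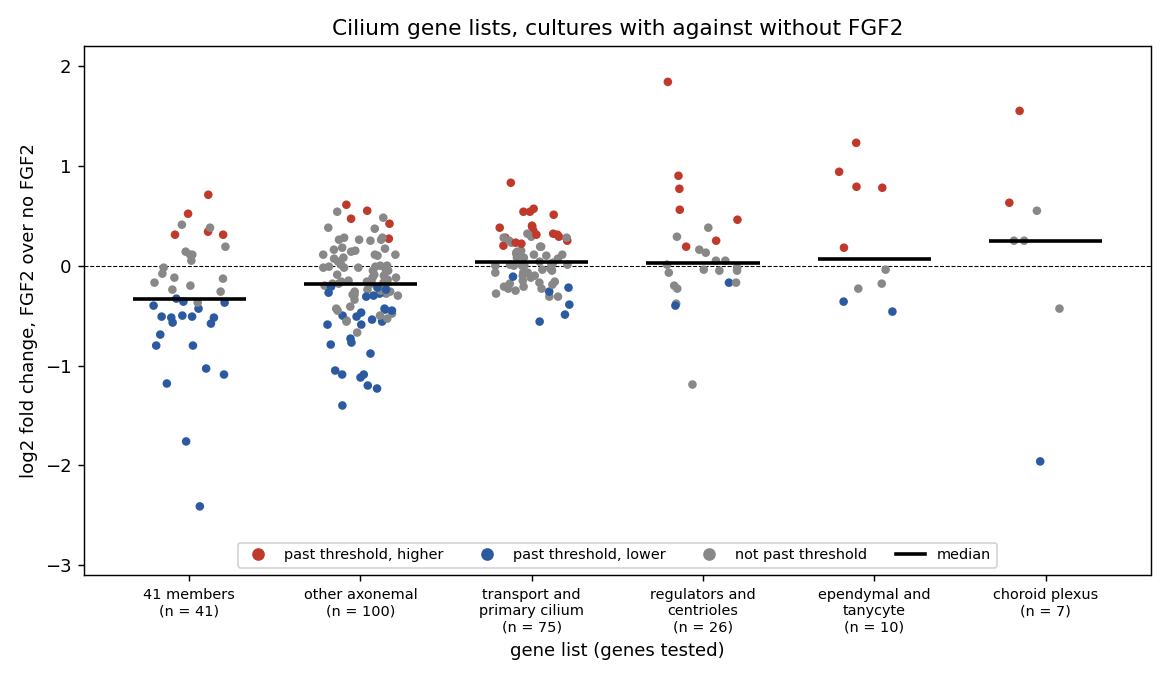
Log2 fold change (FGF2 over noFGF2) of every tested gene of the 41 and of 5 lists outside it, 1 point per gene, coloured by the edgeR call, with the median as a bar. The medians are -0.33 for the 41 genes, -0.18 for the other axonemal genes, 0.04 for transport and primary cilium genes, 0.03 for regulators and centrioles, 0.07 for ependymal and tanycyte genes and 0.25 for choroid plexus genes.

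The label of the list names ependymal cells, and their genes outside the axoneme were checked. Of 14 such genes 10 were tested, 5 rose and 2 fell, beside 20.7% higher and 19.9% lower of all genes tested. Vim rose by 1.23 on the log2 scale (SE 0.03, adjusted p = 3.1e-293 by edgeR) and Crym by 0.94 (SE 0.18, adjusted p = 1.5e-06). Prom1 rose by 0.79 (SE 0.09, adjusted p = 3e-16 by edgeR) and Aqp4 by 0.78 (SE 0.03, adjusted p = 1.9e-127). The fifth that rose was Ezr, at 0.18 (SE 0.05, adjusted p = 0.0021 by edgeR). Those that fell were Cd24a, a marker of ependymal cells, at -0.36 (SE 0.05, adjusted p = 5.1e-13 by edgeR), and the planar polarity gene Celsr2, at -0.46 (SE 0.04, adjusted p = 2.5e-24). Ezr, Cd24a and Celsr2 were named after their values were seen. Which cells carried the lower Cd24a values was not tested. Vim, Aqp4 and Prom1 are also genes of astrocytes or neural stem cells, so these genes do not mark ependymal cells apart from other glia here. The tanycyte gene Rax was at 0 in all 4 libraries. Genes of the choroid plexus, another ciliated epithelium, were scarce. Of 14, 7 were tested, beside 20.7% higher and 19.9% lower of all genes tested. Enpp2 (0.63, SE 0.08, adjusted p = 1.2e-12 by edgeR) and Kcnj13 (1.55, SE 0.58, adjusted p = 0.022) rose while Ttr (-1.96, SE 0.73, adjusted p = 0.02) fell. Ttr had 0 and 6 counts against 16 and 11, and Kcnj13, which shares 49.1% of its exonic bases with the far more abundant Gigyf2 on the opposite strand, had 18 and 16 against 4 and 9, and both calls were lost with DESeq2.

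Marker genes of other cell types differed between the groups, beside 20.7% higher and 19.9% lower of all genes tested. In a bulk library, cell number and RNA per cell cannot be told apart for these markers. The summed level of 12 neuron markers was 3920 and 4070 CPM with FGF2 and 5730 and 5710 without, and 11 of 12 tested fell. Of 11 astrocyte markers tested 9 rose, with sums of 13900 and 13700 against 8760 and 8700 CPM, and all 9 oligodendrocyte lineage markers tested rose, at 1860 and 1870 against 558 and 567 CPM. Of 10 proliferation genes 9 fell, at 225 and 230 against 315 and 309 CPM. Of 6 microglia markers tested 4 rose and 0 fell. In the remaining lists 4 rose and 4 fell of 12 for radial glia, 2 and 2 of 7 for fibroblast and mural cells and 1 and 1 of 3 for endothelium, whose Cldn5 and Tie1 were at 0. The part of these shifts in the values of the cilia genes was not tested.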

How the data were processed

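Reads were aligned by the authors to mm10 (HISAT2 2.1.0), those of low mapping quality were dropped (Samtools), and gene counts were made with HTSeq 0.11.2 (versions from the submitters' processing notes). The deposited values are these raw counts, 1 file per library, and the annotation release and strand setting are not given in the sources used here. Of 55421 genes listed, 55240 were matched to GENCODE M21 (GRCm38, the build of the files), which gave names, coordinates and exonic lengths. A further 5 tallies that name no gene were left out of totals and tests. They held 43.2 to 45.9% of the read pairs as no feature and 1.47 to 1.76% as ambiguous. All 37 mitochondrial genes were at 0.

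From the counts, 17144 genes passed the filter of edgeR 4.0.16 (R 4.3.3, TMM factors 0.993 to 1.01) and were fitted with its robust quasi-likelihood test, and p-values were adjusted by Benjamini-Hochberg over all of them. The study used DESeq2 for this contrast, which was an alternative here (1.42.0), as was limma-voom (limma 3.58.1). The fits were tested on simulated data. The 41 genes, their roles and all lists were chosen with earlier results of these data known. Every one of the 41 was named, and of each other list the 4 genes with the largest absolute log2 fold change among those called with a mean of at least 1 CPM, all called genes of a list where 5 or fewer passed, and Dnah7a, Dnah7c and Dynlrb1 as relatives.

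The replicate libraries differed by more than sampling noise (chi-square per degree of freedom 2.28 with FGF2 and 1.76 without). Same-numbered libraries did not deviate together (correlation 0.00397 over 12670 genes), so the number was not used as a pairing. Exon overlaps were found with bedtools 2.31.1 and near-identical transcript stretches (at least 100 bases, 95% identity) with BLAST 2.17.0. They were found for 16 of the 41 genes, mostly where exons overlap, and 15 of the 41 overlap exons of a gene on the opposite strand and 2 on the same strand. Counts cover counting error and PCR copies alike.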

Additional observations from a re-analysis of the deposited data

How the results depend on the processing

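The counts of the 41 genes kept within 1.5 times of the reported ones under every alternative, at 4 to 7 higher and 15 to 21 lower, and their median log2 fold change stayed between -0.37 and -0.25. Leaving out 1 library in turn gave 4 to 5 higher, 16 to 21 lower and 5282 to 6271 genes called in all. DESeq2 called 4456 genes in place of 6948, and of the other axonemal genes 2 as higher and 10 as lower in place of 5 and 28. Offsets for gene length and GC content gave 10 higher axonemal genes, and 10 with the replicate block added. Without 1 library these axonemal counts ranged from 2 to 6 higher, with 2 without noFGF2 replicate 1, and from 14 to 24 lower, with 17 without FGF2 replicate 2, 17 without noFGF2 replicate 1 and 14 without noFGF2 replicate 2, and the cause was not tested. With the replicate block alone 6816 genes were called in all, 5 and 20 of the 41 and 5 and 27 of the other axonemal genes, and it changed the call of none of the 41. Foxj1 and Rfx3, which were not called, passed with the offsets (0.27 and -0.17) and without FGF2 replicate 2, and Ccdc40 passed with the offsets (0.28). No value could be given for Tmem212 when at least 10 counts were asked of every library. Dynlrb2, Drc7 and Tekt2, not called, and Zmynd10 changed sign when 1 library was left out. A mean below 100 counts was found for 8 of the 41 genes, of which 5 were called, beside 40.5% of all genes tested.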
